A study of Mus musculus with 33 samples.

Results

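The splicing factor genes studied here are the mouse genes whose symbols start with Srsf, Sfrs, Hnrnp, Snrp, Sf3, Prpf or U2af. They were read on a liver microarray at probe sets that carry 1 gene symbol and were called present on at least 3 of 33 arrays. The symbols matched 71 probe sets of 52 genes, and 57 probe sets of 47 genes met the detection rule, among 6568 probe sets tested and 12488 on the array. The tested probe sets with 1 symbol stood for 5001 genes. The other 14 matched probe sets were called present too rarely, and with them 5 genes dropped out whole (Srsf4, Snrpc, Prpf31, Prpf39 and Snrp1c-ps2). By name family, the 57 probe sets were 19 for 16 Hnrnp genes, 13 for 8 Srsf genes, 9 for 8 Sf3 genes, 7 for 6 Prpf genes, 6 for 6 Snrp genes and 3 for 3 U2af genes. A member below means 1 of these 57 probe sets.

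Liver RNA came from 33 male adult mice of unstated strain, 1 array per mouse, and the design asks what rapamycin, an inhibitor of the kinase complex mTORC1, does to liver transcripts. In 8 groups of 3, mice went without food for 22 h and then received an injection of rapamycin (10 mg/kg) or of the vehicle (0.9% NaCl with 2% ethanol). They were killed 2 h after the injection (0 h) or were given food and killed after 3, 6 or 12 h of refeeding. Nonfasted mice received rapamycin or vehicle and were killed 24 h later (n = 2 each), and 5 mice were fasted for 24 h with no injection. The p-values below measure the spread between these mice, and in whole liver fewer cells of a type and less RNA per cell cannot be told apart.

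Splicing removes introns from newly made transcripts. The U1 snRNP pairs with the start of the intron, and the U2af dimer binds the pyrimidine-rich tract and the last bases of the intron. U2af brings in the U2 snRNP, whose Sf3a and Sf3b subunits hold the branch point, and the U4/U6.U5 tri-snRNP with its Prpf proteins then joins to form the catalytic centre. Sm proteins, encoded by Snrp genes, form a ring around the small nuclear RNAs. SR proteins (Srsf) mostly promote the use of an exon, hnRNP proteins often counter them, and several members of both families limit their own level through splice forms that are degraded. In liver, feeding and fasting change the splicing of metabolic genes as well as their transcription, and mTORC1 is known to act on SR proteins through a protein kinase, SRPK2.

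Promoters of 42 of the 47 genes were found in the RefSeq table of GRCm38.p6, each running from 250 bases before to 50 bases after a transcript start. The 5 printed here belong to genes whose changes are described below: Srsf2 (chr11:116853045-116853344, minus strand), Prpf8 (chr11:75486527-75486826, plus strand), Prpf6 (chr2:181601069-181601368, plus strand), Hnrnpdl (chr5:100039173-100039472, minus strand) and Snrpg (chr6:86371290-86371589, plus strand). Capitals mark matches on either strand to CCAAT, to the GC box (GGGCGG), to an ETS factor motif (CCGGAAG), to the core of the cAMP response element (TGACGT) and to the TATA box (TATAAA). Overlapping matches run together.
Srsf2: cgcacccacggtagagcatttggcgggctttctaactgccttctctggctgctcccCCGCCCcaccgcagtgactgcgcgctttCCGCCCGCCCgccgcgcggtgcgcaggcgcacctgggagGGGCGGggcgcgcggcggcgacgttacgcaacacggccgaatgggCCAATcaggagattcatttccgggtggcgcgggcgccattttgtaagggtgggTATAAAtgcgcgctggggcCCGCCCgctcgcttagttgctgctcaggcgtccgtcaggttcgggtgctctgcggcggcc
Prpf8: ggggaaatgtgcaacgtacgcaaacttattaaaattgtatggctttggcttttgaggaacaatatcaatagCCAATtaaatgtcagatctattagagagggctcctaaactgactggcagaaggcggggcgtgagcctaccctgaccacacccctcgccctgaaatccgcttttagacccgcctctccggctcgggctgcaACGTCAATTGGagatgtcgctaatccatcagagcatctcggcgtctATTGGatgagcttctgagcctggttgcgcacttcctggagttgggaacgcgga
Prpf6: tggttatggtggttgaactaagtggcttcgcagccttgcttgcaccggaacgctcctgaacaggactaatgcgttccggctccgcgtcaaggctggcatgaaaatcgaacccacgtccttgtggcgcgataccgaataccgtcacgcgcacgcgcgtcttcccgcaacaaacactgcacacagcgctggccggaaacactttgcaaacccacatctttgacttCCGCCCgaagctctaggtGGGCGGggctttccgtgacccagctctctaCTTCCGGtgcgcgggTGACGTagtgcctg
Hnrnpdl: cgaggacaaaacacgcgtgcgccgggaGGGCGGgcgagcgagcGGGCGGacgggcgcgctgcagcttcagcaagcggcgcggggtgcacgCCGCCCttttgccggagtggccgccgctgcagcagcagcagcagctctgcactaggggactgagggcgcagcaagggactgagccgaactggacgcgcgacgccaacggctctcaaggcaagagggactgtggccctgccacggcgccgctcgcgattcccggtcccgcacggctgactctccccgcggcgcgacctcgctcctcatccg
Snrpg: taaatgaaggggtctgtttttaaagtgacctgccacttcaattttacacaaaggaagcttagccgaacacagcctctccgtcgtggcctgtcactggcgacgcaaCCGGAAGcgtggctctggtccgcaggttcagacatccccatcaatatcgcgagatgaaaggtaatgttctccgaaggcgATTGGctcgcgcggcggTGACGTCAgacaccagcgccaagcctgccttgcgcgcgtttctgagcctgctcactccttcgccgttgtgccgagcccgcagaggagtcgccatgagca
The Srsf2 window held a TATAAA at -29 and a CCAAT at -82 from the start, with 5 GC boxes around them. That of Prpf8 held 3 CCAAT matches and a TGACGT but no GC box, and Snrpg held TGACGT on both strands at -49 and -47, a CCAAT at -66 and an ETS motif at -145. Prpf6 carried GC boxes at -27 and -9 with the ETS and TGACGT motifs behind the start, and Hnrnpdl carried 3 GC boxes only. Among the 42 genes, CCAAT stood in 52.4% against 43.2% of the 4074 tested genes with a promoter entry. The GC box stood in 69.0% against 67.7% and the ETS motif in 35.7% against 20.3%. TGACGT stood in 31% against 14%, and TATAAA in 11.9% against 10.7%. Over all 27025 genes of the table these shares were 41.1%, 38.2%, 9.93%, 8.37% and 15.7%. The median GC content was 60.2% in promoters of the splicing factor genes, 60.3% in those of tested genes and 52.7% in all. A match describes these letters only.

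The arrays formed 2 sets by the share of intensities at or below 0, which was 35.05% to 40.8% on the 16 arrays of set 1 and 24.2% to 28.2% on the 17 arrays of set 2. Vehicle groups at 0 h and 6 h, the uninjected fasted group and the nonfasted rapamycin group lay in set 1, together with rapamycin replicate 3 at 3 h and replicates 1 and 2 at 6 h. All others lay in set 2. Of 13 pairs of groups, 6 therefore compare arrays of 1 set, and in the other 7 the set moves with the condition. Calls of members in those 7 were also refitted with the set as a term. This term rests on the mixed groups alone, which are rapamycin livers refed for 3 h (1 array of set 1, 2 of set 2) or 6 h (2 of set 1, 1 of set 2). Refits of vehicle, fasted or nonfasted livers borrow the set difference seen in those few rapamycin arrays. A call lost or kept with the term therefore cannot decide between set and condition. Intensities are the authors' linear values, which can fall below 0. For tests they were floored at 6.31 and taken to log2, so changes of dim members depend on this floor. Of the 57 members, 16 lay below 30 on most arrays. Hepatocyte markers were high on every array, with 6 probe sets of the 8 listed genes tested and summed intensities between 16415 and 25570.

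The levels of splicing factor genes ranged over the groups about as far as those of other liver transcripts. Among the 32 members with a mean of at least 30 in every group, the highest group mean was a median of 1.85 times the lowest (range 1.36 to 3.76), and this ratio had a median of 1.84 over all 3552 probe sets held to the same condition. The ratio was above 2 for 34.4% of these members and for 39.1% of all such probe sets. The steadiest member was U2af2 at 1.36, and Sf3b1 97808_at (3.76), Srsf2 94017_s_at (3.42) and Hnrnpd (3.34) varied most. Counts below use limma's moderated test, adjusted by the Benjamini-Hochberg method over all 6568 probe sets, at a threshold of 0.05, and percentages in parentheses are the share of all probe sets called in the same direction.

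**Figure D1:**
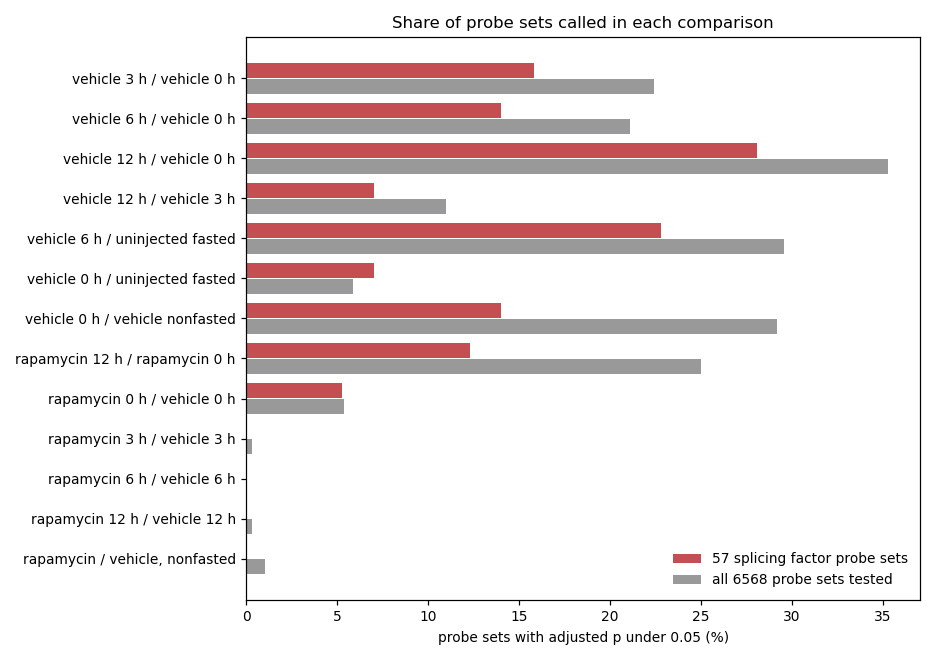
Percent of probe sets with an adjusted p under 0.05 (x axis) in each of 13 comparisons (y axis, first group over second), for the 57 splicing factor probe sets (red, upper bar) and for all 6568 tested (grey, lower bar). The red bar is longer than the grey one only for vehicle 0 h over uninjected fasted livers, at 7.02% against 5.88%, and there are no red bars for rapamycin at 3, 6 and 12 h or without a fast.

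After 6 h of refeeding, vehicle livers had 3 members higher (14.2%) and 5 lower (6.90%) than vehicle livers at 0 h, all within set 1. Against uninjected fasted livers, also within set 1, they had 10 members higher (18%) and 3 lower (11.6%), or 22.8% of members in either direction against 29.6% of all probe sets. In every result for 6 h over uninjected livers, refeeding and the injection cannot be told apart. Vehicle livers at 0 h themselves had 4 members higher (2.94%) and 0 lower (2.94%) than uninjected fasted livers, where 18 members (31.6%) had an unadjusted p under 0.05 in either direction, against 22.5% of all probe sets. Refed 12 h against refed 3 h, both vehicle and both in set 2, gave 1 member higher (5.80%) and 3 lower (5.16%). Under rapamycin, refed 12 h against 0 h gave 3 higher (14.6%) and 4 lower (10.4%), again within set 2. Across the sets, vehicle livers refed for 3 h had 9 members higher (19.9%) and 0 lower (2.54%) than at 0 h, with 15 (26.3%) at an unadjusted p under 0.05 in either direction, against 35.1% of all. Those refed for 12 h had 13 higher (26%) and 3 lower (9.30%). With the set as a term 0 members passed at 3 h, where 2.68% of all probe sets did. At 12 h 2 members passed, against 15.6% of all, namely Prpf6 and Hnrnph2, neither of them among the 16. Fasted vehicle livers at 0 h had 5 members higher (10.1%) and 3 lower (19.1%) than nonfasted vehicle livers. These groups also differ in the time since injection, 2 h against 24 h. In every result for fasted over nonfasted vehicle livers, fasting and this time cannot be told apart. Livers refed for different times, 0 h included, also differ in the time since injection, by the hours of refeeding. Refeeding and time since injection cannot be told apart there either. Of 72 calls over all comparisons, a fit of only the groups compared, which has fewer arrays to estimate the spread, lost 39 (all 4 of 0 h over uninjected livers and all 4 of 12 h over 3 h among them). It lost Prpf6, Prpf8 and Hnrnpdl for 6 h over 0 h, U2af1 and Hnrnpdl for fasted over nonfasted livers, and Snrpg, U2af1 and Prpf6 for 12 h over 0 h under rapamycin (limma, adjusted p = 0.0528 to 0.231).

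Counts by direction depended on how the arrays were scaled. With all arrays scaled to 1 trimmed mean, 1 member was higher and 9 lower at 6 h than at 0 h in vehicle livers, and 49.0% of all calls were rises, against 67.3% with the values as deposited. For 6 h over uninjected livers that scaling gave 11 higher and 5 lower (48.3% against 60.9% rises), for 3 h over 0 h 6 and 2 (55.8% against 88.6%), and for 12 h over 0 h 8 and 9 (47% against 73.6%). For fasted over nonfasted vehicle livers it gave 11 higher and 2 lower (54.1% against 34.6%), and for 12 h over 0 h under rapamycin 3 and 6 (48.2% against 58.3%). Quantile normalization gave 3 higher and 1 lower for 3 h over 0 h (59.7% rises) and 7 and 8 for 12 h over 0 h (54.2%). For 0 h over uninjected livers it gave 4 and 0 (66.3% of all calls, with an even split as deposited). The median log2 change of all probe sets, as deposited, was 0.27 for 3 h over 0 h, 0.24 for 12 h over 0 h and -0.11 for fasted over nonfasted vehicle livers. The medians of members in these comparisons were 0.32, 0.27 and 0.00.

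**Figure D2:**
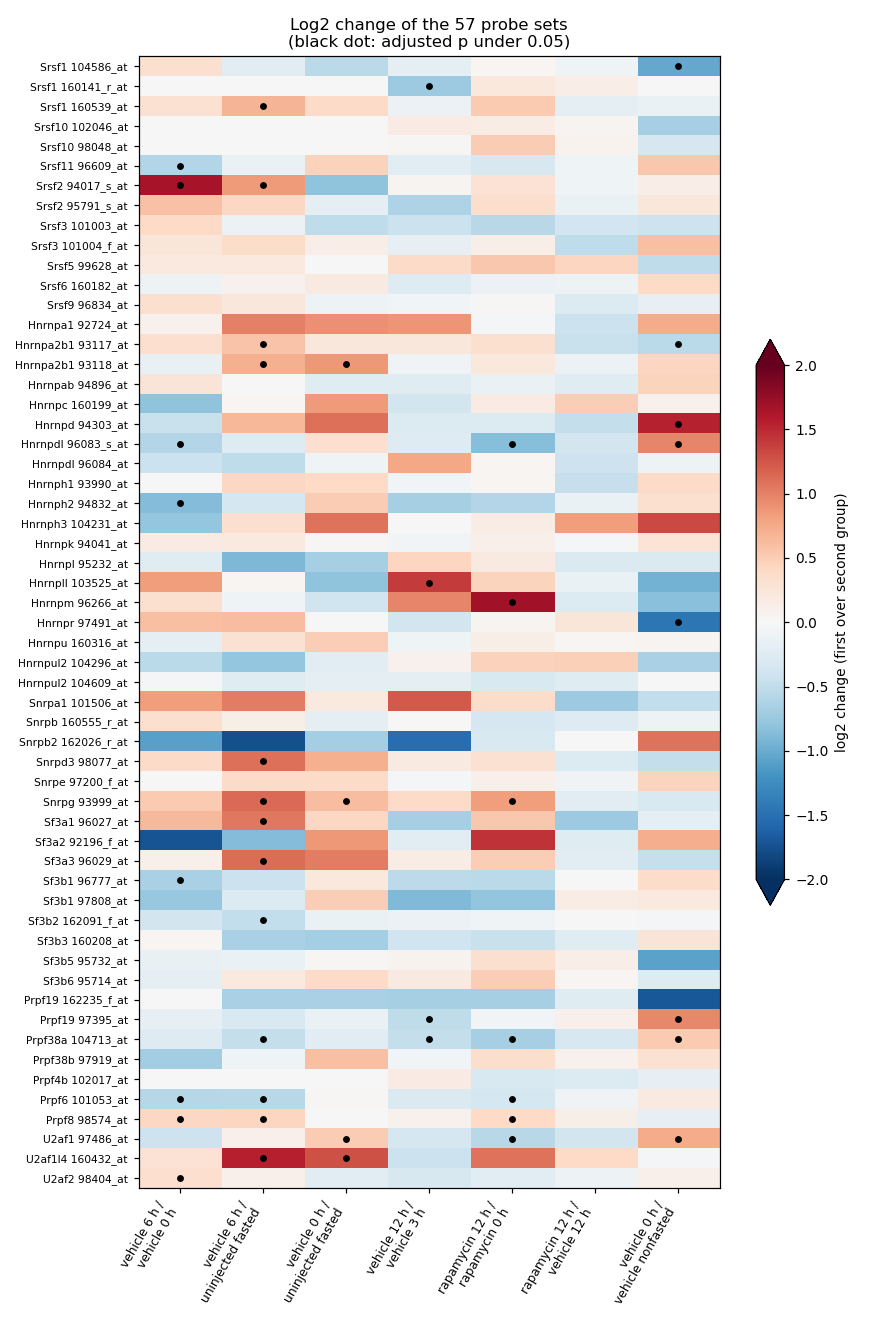
Log2 change (colour, first group over second, red higher and blue lower) of the 57 probe sets (rows, grouped by name family) in the 6 comparisons within 1 array set and in fasted against nonfasted vehicle livers (columns). Black dots mark an adjusted p under 0.05. The darkest red with a dot in the first column is Srsf2 94017_s_at, at 1.65.

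Srsf2 encodes SC35, an SR protein that activates exons and controls its own messenger RNA. Its probe set 94017_s_at read 1023, 1117 and 1178 in vehicle livers refed for 6 h, 314, 368 and 376 in vehicle livers at 0 h, and 679.9, 499, 584, 630 and 688 in uninjected fasted livers. The 3 refed arrays lay above all arrays of both fasted groups, and the uninjected livers lay above those at 0 h. Refed 6 h over 0 h was a log2 change of 1.65 ± 0.29 (SE), or 3.14-fold (limma, adjusted p = 2.08e-04), and this call stayed in every alternative and with any array left out. Over uninjected livers the change was 0.85 (adjusted p = 0.0173), and that call was lost without vehicle 6 h replicate 2 (adjusted p = 0.0520) or replicate 3 (adjusted p = 0.0561). At other times the level in vehicle livers was lower than at 6 h, with means of 502 ± 36.1 at 3 h and 520 ± 22.5 at 12 h (SD, n = 3 each). The rapamycin groups held high and low arrays. At 6 h they read 962, 991 and 393, of which the first pair are set 1 arrays and the low one is of set 2. At 12 h, all in set 2, they read 796, 390 and 377. Nonfasted rapamycin livers, both in set 1, read 814 and 439. Whether these arrays match their labels was not tested. The second Srsf2 probe set, 95791_s_at, read 143, 163 and 152 in vehicle livers refed for 6 h and 86, 89 and 135 at 0 h, a log2 change of 0.59 (adjusted p = 0.194, limma) with a 95% interval of -0.05 to 1.23. Both probe sets carry the _s suffix, which the array's maker gives to probes shared by several transcripts, so which Srsf2 transcript they read is uncertain.

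Srsf1, the founding SR protein with roles in splicing, export and translation, and Srsf3, the smallest of the family, were called in the comparisons that cross the array sets. Srsf1 104586_at read 30, 39 and 35 in vehicle livers refed for 3 h against 15, 13 and 14 in those at 0 h, and Srsf1 160539_at read 55, 47 and 57 against 28, 18 and 30. Srsf3 101003_at read 20, 32 and 32 against 0, -6 and 7. The groups do not overlap, but the refed arrays are of set 2 and the 0 h arrays of set 1. The log2 changes of 1.30, 1.09 and 2.07 (adjusted p = 6.51e-04, 0.00526 and 0.00187 by limma) became 0.77, 0.54 and 0.52 with the set as a term (adjusted p = 0.265, 0.522 and 0.679). The part of the array set in these calls was not separated from refeeding, since no vehicle group spans both sets. Within 1 set, these probe sets did not pass for vehicle livers at 6 h over 0 h or rapamycin livers at 12 h over 0 h. Vehicle livers at 6 h read 14, 21 and 18, then 22, 26 and 50, then -5, 2 and 16, in the order above. Srsf3 101003_at was called present on 12 of 33 arrays. The other Srsf3 probe set, 101004_f_at, was called present on all 33 and lay below 30 on 3. Its group means ran from 30.5 in nonfasted vehicle livers to 64.3 in vehicle livers refed for 3 h, and it passed in no comparison. Srsf1 160539_at was also higher at 6 h of refeeding than in uninjected livers, both in set 1, at 22, 26 and 50 against 13.9, 18, 25, 20 and 20 (log2 change 0.68, adjusted p = 0.0346). That call was lost without vehicle 6 h replicate 3 (adjusted p = 0.333) and without uninjected replicates 1 (adjusted p = 0.0840) or 2 (adjusted p = 0.0590). The third Srsf1 probe set, 160141_r_at, stayed at or below 20 on all arrays. In set 2 it read 11, 10 and 10 in vehicle livers at 12 h against 19, 20 and 13 at 3 h (log2 change -0.72, limma adjusted p = 0.0400). That call was lost without any 1 of 5 of the 6 arrays, all but vehicle 3 h replicate 3 (adjusted p = 0.0595 to 0.149).

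For fasted over nonfasted vehicle livers, which also lie in different sets, Srsf1 104586_at read 15, 13 and 14 against 29 and 28 (log2 change -1.03, limma adjusted p = 0.00722). With the set as a term the change was -0.50 (adjusted p = 0.380), and the call was lost without nonfasted vehicle replicate 1 (adjusted p = 0.0577).

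**Figure D3:**
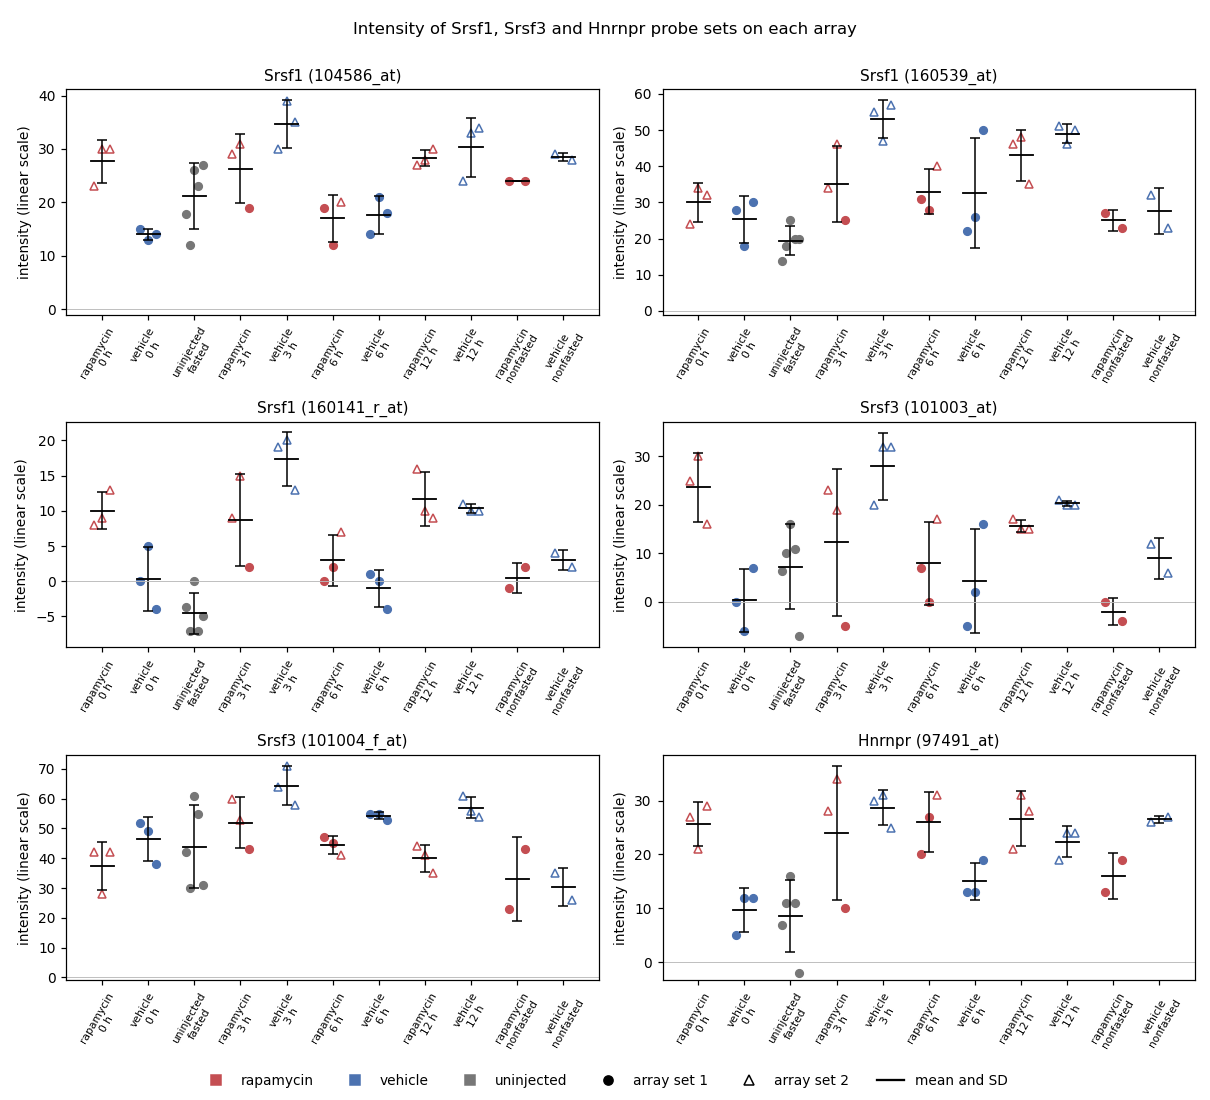
Intensity (y axis, linear) on each array of 3 Srsf1, 2 Srsf3 and 1 Hnrnpr probe sets by group (x axis), with group mean and SD as black bars; circles are set 1 arrays and triangles set 2 arrays, red rapamycin, blue vehicle and grey uninjected. In Srsf1 104586_at the triangles of vehicle 3 h (30 to 39) and of rapamycin 0 h (23 to 30) lie above the circles of vehicle 0 h (13 to 15).

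Among the other SR proteins, Srsf11 was lower at 6 h than at 0 h in vehicle livers, at 65, 66 and 86 against 107, 97 and 119 (log2 change -0.58, limma adjusted p = 0.050). The call was lost without any 1 of 5 of the 6 arrays, vehicle 6 h replicate 3 being the exception (adjusted p = 0.0583 to 0.160). Srsf9 was higher at 3 h, at 132, 148 and 153 against 98, 90 and 100, and with the set as a term its log2 change of 0.59 became 0.36 (limma adjusted p = 0.443). Srsf6, which recognises purine-rich enhancers, had group means between 94.5 and 139 and passed in no comparison. Srsf5, known as a gene induced by insulin in rat liver cells, had its lowest mean of 145 ± 29.7 in vehicle livers refed for 3 h and its highest of 334 ± 44.6 in rapamycin livers refed for 6 h (SD, n = 3 each), with overlapping arrays in most pairs and no call. Both Srsf10 probe sets lay below 30 on all 33 arrays.

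Recognition of the end of the intron is the work of the U2af dimer. U2af1, its small subunit, had its highest mean in vehicle livers at 0 h. It read 240, 238 and 152 in vehicle livers at 0 h against 129 and 116 in nonfasted vehicle livers, with no overlap. This was a log2 change of 0.75 ± 0.17 (limma, adjusted p = 0.00152), and 0.77 with the set as a term (adjusted p = 0.0269). Over the uninjected fasted livers, at 149.4, 120, 159, 148 and 151, the change was 0.51 (adjusted p = 0.0288). That call was lost without vehicle 0 h replicates 1 (adjusted p = 0.160) or 2 (adjusted p = 0.212) and without uninjected replicate 2 (adjusted p = 0.0648). The third 0 h array lay within the range of the uninjected arrays. Under rapamycin U2af1 read 123, 111 and 108 after 12 h of refeeding against 198, 136 and 173 at 0 h, again with no overlap, and fell by 0.55 on the log2 scale (limma, adjusted p = 0.00811; 0.0526 without rapamycin 0 h replicate 1). The vehicle series ran 210 ± 50.2, 185 ± 5.03, 155 ± 1.53 and 147 ± 12.9 at 0, 3, 6 and 12 h (SD, n = 3 each).

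For vehicle livers at 12 h over 0 h, a comparison that crosses the sets, the change of U2af1 was -0.49 (limma, adjusted p = 0.0126; with the set term 0.123). The call was lost without vehicle 0 h replicates 1 (adjusted p = 0.0814) or 2 (adjusted p = 0.0719). U2af2, the large subunit that binds the pyrimidine tract, was among the steadiest members. In vehicle livers it read 397, 384 and 501 at 6 h of refeeding and 342, 311 and 361 at 0 h, a log2 change of 0.33 (limma, adjusted p = 0.0387). The call was lost without vehicle 6 h replicate 3 (adjusted p = 0.228) and without vehicle 0 h replicates 1 (adjusted p = 0.0736) or 2 (adjusted p = 0.138), and with all arrays scaled to 1 trimmed mean (adjusted p = 0.258). At 3 h over 0 h, across the sets, U2af2 was called as well (log2 change 0.32, limma adjusted p = 0.0414; with the set term 0.47 and 0.130). It did not pass without any 1 of 5 of the 6 arrays, all but vehicle 0 h replicate 3 (adjusted p = 0.0523 to 0.169). U2af1l4, a close relative of U2af1, read 26, 29 and 34 at 6 h and 20, 34 and 21 at 0 h in vehicle livers, both above most of the uninjected values of -14.9, 0, 25, 1 and 16. It passed against uninjected livers at both times, with log2 changes of 1.56 and 1.28 (limma, adjusted p = 0.00330 and 0.0461), but not with a floor of 30, above which few of these values lie. The change at 0 h was lost without vehicle 0 h replicates 1 or 2 or uninjected replicates 1, 2 or 4 (limma, adjusted p = 0.0898 to 0.280).

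The Sf3 proteins make up most of the protein mass of the U2 snRNP. Sf3a1 had the largest called change of this family, reading 71, 88 and 83 in vehicle livers refed for 3 h against 26, 17 and 30 at 0 h, a log2 change of 1.76 ± 0.30 (limma, adjusted p = 2.03e-04). The groups lie far apart but differ in array set, and with the set as a term the change was 1.34 (adjusted p = 0.101). Within set 1 it read 26, 39 and 50 at 6 h of refeeding against 12.2, 24, 24, 17 and 15 in uninjected livers, a log2 change of 1.06 (adjusted p = 0.00441; 0.0829 with a floor of 30). Rapamycin livers refed for 3 h read 33, 60 and 34, all below the vehicle arrays at 3 h, but the difference of -0.98 did not pass (limma, adjusted p = 0.286), with a 95% interval of -1.60 to -0.37. With the set as a term it was -0.84 (adjusted p = 0.626).

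Sf3b1, the subunit that clamps the branch point, was lower in vehicle livers at 6 h than at 0 h by 96777_at, at 27, 32 and 29 against 47, 50 and 41. Its log2 change of -0.65 was at the threshold (limma, adjusted p = 0.0490) and was lost without any 1 of 5 of the 6 arrays, all but vehicle 0 h replicate 3 (adjusted p = 0.0687 to 0.144). The other Sf3b1 probe set, 97808_at, read 55, 65 and 27 against 74, 128 and 49 and had a change of -0.76 (adjusted p = 0.126). Sf3b2 was lower at 6 h of refeeding than in uninjected livers, at 39, 66 and 68 against 71.5, 79, 82, 90 and 74 (log2 change -0.50, limma adjusted p = 0.0185, but 0.275 without vehicle 6 h replicate 1). Sf3a3, which read 27, 25 and 24 at 6 h against 4, 4, 18, 27 and 11, was higher in the same comparison. That call was lost without any 1 vehicle 6 h array or uninjected replicates 1 or 2 (limma adjusted p = 0.0580 to 0.0961). The other 4 Sf3 genes passed in no comparison.

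Of the Sm proteins, Snrpg had the change with the smallest p of all members in any comparison. It read 84, 87 and 81 in vehicle livers refed for 6 h against 44.4, 33, 33, 38 and 44 in uninjected fasted livers, with every refed array far above every uninjected one. The log2 change was 1.14 ± 0.17, or 2.20-fold (limma, adjusted p = 3.03e-05), and it passed in every alternative and with any array left out. Vehicle livers at 0 h lay between, at 61, 71 and 46, and Snrpg did not pass for 6 h over 0 h. The livers at 0 h were higher than uninjected ones by 0.61 (limma, adjusted p = 0.0392). That call did not stay without vehicle 0 h replicates 1 (adjusted p = 0.132) or 2 (adjusted p = 0.268), or without uninjected replicates 2 (adjusted p = 0.0839), 3 (adjusted p = 0.0730) or 4 (adjusted p = 0.0595). Under rapamycin Snrpg read 73, 88 and 62 after 12 h of refeeding and 59, 28 and 43 at 0 h, with no overlap, a log2 change of 0.83 ± 0.20 (limma, adjusted p = 0.00304) that stayed with any array left out.

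Snrpd3, another ring protein, read 43, 61 and 50 at 6 h of refeeding against 32.4, 13, 23, 29 and 27 in uninjected livers, a log2 change of 1.10 (limma, adjusted p = 0.0322). It did not pass without any 1 vehicle 6 h array or uninjected replicates 2 or 3 (adjusted p = 0.0522 to 0.122). Snrpb, which encodes ring proteins B and B', was bright in every group, with means from 963 to 1570, and Snrpe had means from 102 to 144. Snrpa1, a protein of the U2 snRNP, read 19, 21 and 28 in vehicle livers at 12 h against 4, 17 and 3 at 0 h (log2 change 1.35, limma adjusted p = 0.0199; with the set term 0.537). This call was lost without vehicle 0 h replicates 1 or 3 or vehicle 12 h replicate 3 (adjusted p = 0.0776 to 0.0943). Snrpb and Snrpe passed in no comparison, though all 3 vehicle 6 h arrays of Snrpb, at 1519, 1601 and 1589, lay above 1109 and 1135 of vehicle 0 h and beside its highest array at 1598. Its probe set has the _r suffix, for which fewer probe pairs met the maker's selection rules.

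Prpf8, the largest protein of the catalytic core, was higher at 6 h of refeeding and Prpf6, which bridges the tri-snRNP, was lower at that time. Prpf8 read 183, 199 and 196 in vehicle livers refed for 6 h against 145, 116 and 177 at 0 h and 146.2, 137, 154, 126 and 155 in uninjected livers, with no overlap in either comparison. Its log2 changes were 0.42 ± 0.12 and 0.43 ± 0.11 (limma, adjusted p = 0.0121 and 0.00376). The first was lost without vehicle 0 h replicate 2 (adjusted p = 0.105) and with all arrays scaled to 1 trimmed mean (adjusted p = 0.0834), and the second passed in every alternative and with any array left out. Prpf6 read 107, 104 and 130 at 6 h against 167, 146 and 192 at 0 h and 156.2, 152, 177, 169 and 174 in uninjected livers, again with no overlap. It fell by 0.56 and 0.55 on the log2 scale (limma, adjusted p = 0.00116 and 4.43e-04), and both calls stayed with any array left out.

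Both genes moved the same way under rapamycin. After 12 h of refeeding Prpf8 read 181, 190 and 205 against 141, 144 and 150 at 0 h, a log2 change of 0.40 (limma, adjusted p = 0.0139; 0.0618 without rapamycin 12 h replicate 3). Prpf6 read 153, 152 and 137 against 175, 189 and 199, a change of -0.35 (limma, adjusted p = 0.0338) that was lost without any 1 of 5 of the 6 arrays, all but rapamycin 0 h replicate 1 (adjusted p = 0.0522 to 0.125). In vehicle livers the means of Prpf6 were 168 ± 23 at 0 h, 190 ± 13.9 at 3 h, 114 ± 14.2 at 6 h and 154 ± 3.21 at 12 h (SD, n = 3 each).

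**Figure D4:**
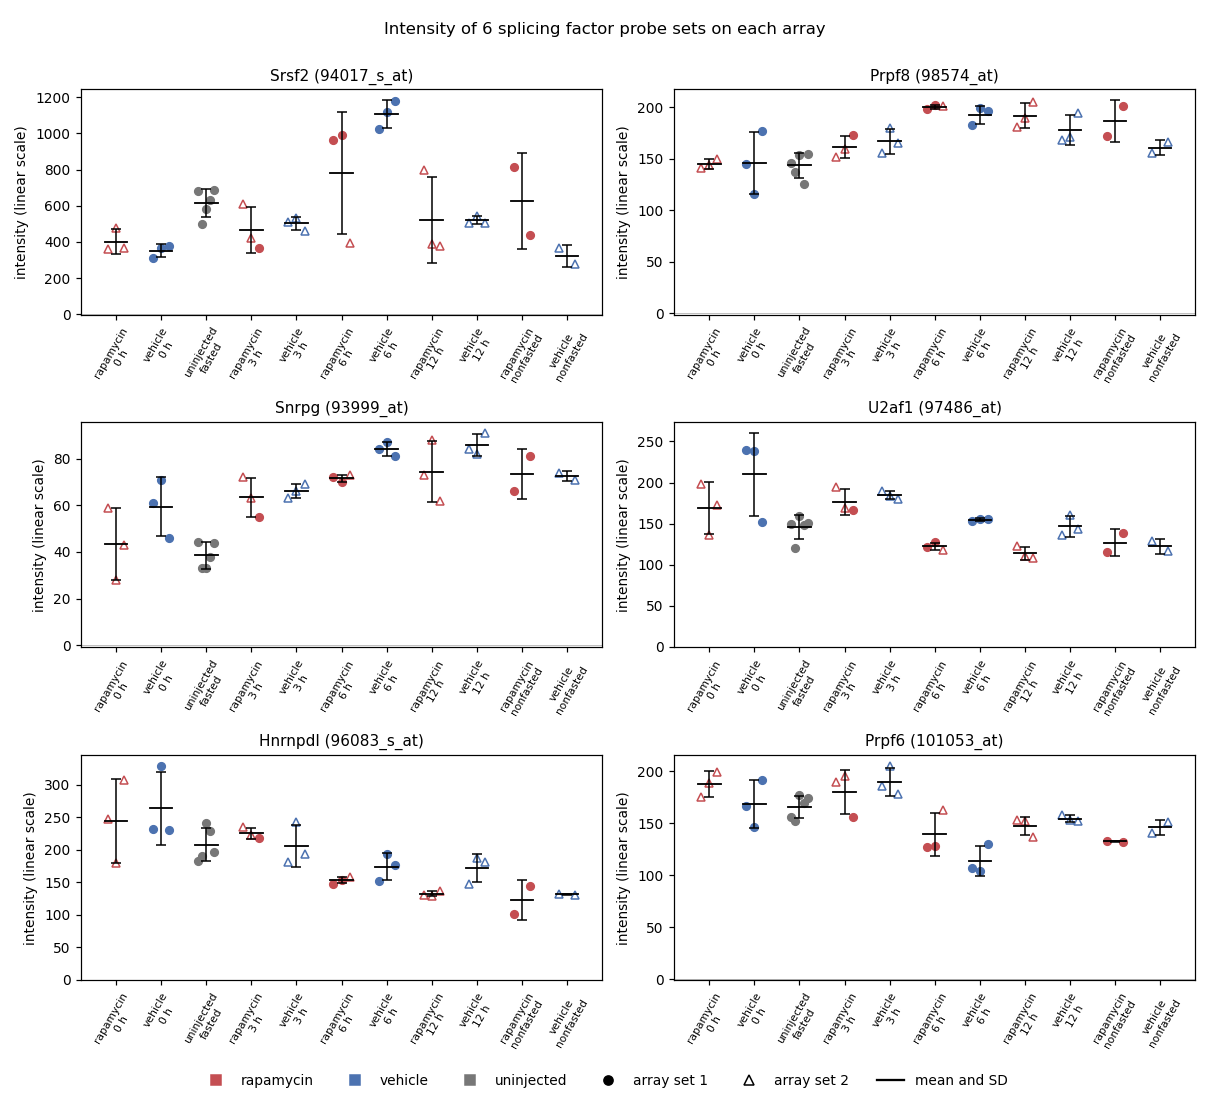
Intensity (y axis, linear) on each array of Srsf2 94017_s_at, Prpf8, Snrpg, U2af1, Hnrnpdl 96083_s_at and Prpf6 by group (x axis), with group mean and SD as black bars; circles are set 1 arrays and triangles set 2 arrays, red rapamycin, blue vehicle and grey uninjected. Srsf2 stands out in vehicle livers at 6 h (1023 to 1178), and Prpf6 is lowest in the same group (104 to 130).

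Prpf38a, which joins the spliceosome before its activation, passed in several comparisons, though it was called present on only 3 arrays. In vehicle livers it did not pass at 3, 6 or 12 h over 0 h. It read 58, 54 and 55 in rapamycin livers refed for 12 h against 88, 105 and 74 at 0 h, a log2 change of -0.66 ± 0.15 (limma, adjusted p = 0.00233) that stayed with any array left out. Vehicle livers refed for 6 h read 62, 73 and 89 against 92.7, 123, 98, 100 and 105 in uninjected livers, all lower (log2 change -0.48, adjusted p = 0.00910, but 0.0952 without vehicle 6 h replicate 1). Refed 12 h vehicle livers were lower than those refed for 3 h, at 70.7 ± 14.2 against 97.0 ± 4 (SD, n = 3 each). That call (limma, adjusted p = 0.0432) was lost without any 1 of 5 of the 6 arrays, all but vehicle 12 h replicate 1 (adjusted p = 0.0721 to 0.179). Vehicle livers at 0 h were higher than nonfasted ones, at 99, 93 and 74 against 62 and 61 (log2 change 0.52, limma adjusted p = 0.0226; with the set term 0.244). Leaving out vehicle 0 h replicates 1 or 2 or either nonfasted vehicle array ended this call (adjusted p = 0.0599 to 0.115).

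Prpf19, a ubiquitin ligase that keeps the tri-snRNP together, was higher in fasted than in nonfasted livers by 97395_at. It read 208, 149 and 172 in vehicle livers at 0 h against 91 and 88 in nonfasted vehicle livers, a log2 change of 0.97 ± 0.18 (limma, adjusted p = 2.48e-04), and 1.07 with the set as a term (adjusted p = 0.00479). Refed 12 h vehicle livers read 149, 123 and 109 against 190, 193 and 157 at 3 h, a change of -0.51 (limma, adjusted p = 0.0394). It was lost without vehicle 3 h replicates 1 or 2 or vehicle 12 h replicates 2 or 3 (adjusted p = 0.104 to 0.169). The other Prpf19 probe set, 162235_f_at, differs in direction between fasted and nonfasted livers, at 43, 2 and 13 against 51 and 48 (log2 change -1.70, adjusted p = 0.134). It carries the _f suffix, for probes that match members of a sequence family. It was called higher at 3 h than at 0 h in vehicle livers, at 49, 85 and 80 against 43, 2 and 13 (log2 change 2.19, limma adjusted p = 0.0382; with the set term 0.737). The call was lost without vehicle 0 h replicates 2 or 3 or vehicle 3 h replicates 2 or 3 (adjusted p = 0.0719 to 0.221). Prpf4b, a kinase of the spliceosome, lay below 30 on all 33 arrays.

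The hnRNP proteins coat new transcripts. Hnrnpdl, a paralog of Hnrnpd that is spliced in response to its own level, was highest in fasted livers by 96083_s_at. It read 232, 329 and 230 in vehicle livers at 0 h against 132 and 131 in nonfasted ones, a log2 change of 0.98 ± 0.20 (limma, adjusted p = 5.89e-04), and 1.05 with the set as a term (adjusted p = 0.0119). After 12 h of refeeding under rapamycin it read 131, 129 and 137 against 248, 179 and 308 at 0 h, with no overlap. The change of -0.85 ± 0.18 (limma, adjusted p = 9.90e-04) stayed in every alternative and with any array left out. In vehicle livers it read 152, 193 and 177 at 6 h against 232, 329 and 230 at 0 h, a change of -0.59 (limma, adjusted p = 0.0191). It did not pass without vehicle 0 h replicate 2 (adjusted p = 0.124) or vehicle 6 h replicate 1 (adjusted p = 0.0970). The second Hnrnpdl probe set, 96084_at, had changes of -0.09, 0.04 and -0.42 in these 3 comparisons, none of which passed (adjusted p = 0.906, 0.954 and 0.461).

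Hnrnpd, or AUF1, which binds AU-rich elements and speeds the decay of messenger RNAs, had the largest rise in fasted against nonfasted livers. It read 96, 141 and 89 in vehicle livers at 0 h against 42 and 32 in nonfasted vehicle livers, with no overlap. The log2 change was 1.54 ± 0.43 (limma, adjusted p = 0.00838), and 1.90 with the set as a term (adjusted p = 0.0307), but the call was lost without nonfasted vehicle replicate 2 (adjusted p = 0.0952). Uninjected fasted livers read 79.6, 52, 48, 67 and 22, of which 1 array lay below both nonfasted arrays.

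Hnrnpa2b1, which binds RNA in the nucleus and sorts RNAs into vesicles, had 2 members that both rose between uninjected fasting and 6 h of refeeding with vehicle. By 93117_at it read 232, 263 and 220 against 155.1, 153, 142, 165 and 192, a log2 change of 0.57 ± 0.13 (limma, adjusted p = 0.00241) that stayed in every alternative and with any array left out. By 93118_at it read 74, 76 and 77 against 47.6, 37, 69, 45 and 38, a change of 0.72 (limma, adjusted p = 0.0216). This was lost without any 1 vehicle 6 h array or uninjected replicates 2 or 5 (adjusted p = 0.0507 to 0.0606). For 6 h over 0 h in vehicle livers neither probe set passed, with 93117_at at 223, 146 and 204 at 0 h. The second probe set, 93118_at, was already higher at 0 h than in uninjected livers, at 102, 74 and 78 (log2 change 0.86, limma adjusted p = 0.0311). This call was lost without vehicle 0 h replicates 1 or 2 or uninjected replicates 2 or 5 (adjusted p = 0.0617 to 0.146). Between 0 h and nonfasted vehicle livers 93117_at was lower, at 223, 146 and 204 against 291 and 255, but only without the set term (log2 change -0.54, limma adjusted p = 0.0166; with the term 0.233). That call was lost also without vehicle 0 h replicate 2 (adjusted p = 0.101) or nonfasted vehicle replicate 1 (adjusted p = 0.163).

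Hnrnpm, a repressor and activator of alternative exons, was called present on only 10 of 33 arrays. It read 69, 100 and 59 in rapamycin livers refed for 12 h against 17, 23 and 32 at 0 h, the largest rise among members within 1 array set. The log2 change was 1.67 ± 0.37 (limma, adjusted p = 0.00203), and it stayed in every alternative and with any array left out. Vehicle livers read 78, 84 and 111 at 12 h against 39, 20 and 67 at 0 h, a change of 1.27 (adjusted p = 0.0107), or 0.71 with the set as a term (adjusted p = 0.418). It was lost without vehicle 0 h replicate 2 (adjusted p = 0.0981) or vehicle 12 h replicate 3 (adjusted p = 0.0501). Hnrnpll, a paralog of Hnrnpl known from the splicing of CD45 in lymphocytes, read 45, 44 and 41 in vehicle livers at 12 h against 21, 33 and 6 at 3 h (log2 change 1.40, limma adjusted p = 0.0265). The call was lost without any 1 vehicle 12 h array or vehicle 3 h replicate 3 (adjusted p = 0.0609 to 0.211). The single lymphocyte probe set on the marker list was lower in the same comparison.

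Hnrnpr, a relative of Syncrip, read 30, 31 and 25 in vehicle livers at 3 h, all set 2 arrays, against 5, 12 and 12 at 0 h, all set 1. Its log2 change of 1.56 for 3 h over 0 h was 0.54 with the set as a term (limma, adjusted p = 0.634). Against the nonfasted vehicle livers, of set 2, at 26 and 27, the change at 0 h was -1.45 (limma, adjusted p = 0.00869; with the set term 0.593). That call was lost without vehicle 0 h replicate 1 or either nonfasted vehicle array (adjusted p = 0.0518 to 0.0629). Hnrnph2 fell at 6 h in vehicle livers, at 12, 14 and 18 against 32, 19 and 30 (log2 change -0.86, limma adjusted p = 0.0169), but not with a floor of 30, which most of these values do not exceed. The call was lost without vehicle 0 h replicates 1 or 3 or vehicle 6 h replicate 1 (adjusted p = 0.0567 to 0.0896). Hnrnpk had group means from 60 to 102, Hnrnpu from 39.3 to 57.3 and Hnrnpl from 42.7 to 81.0, and these 3, like the dim Hnrnpa1 and Hnrnpc, passed in no comparison.

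Vehicle livers at 12 h and at 0 h lie in different sets as well. There the 6 largest rises were those of Srsf3 101003_at (log2 change 1.64), Snrpa1 (1.35), Hnrnpm (1.27), Hnrnpll (1.24), Hnrnpr (1.2) and Sf3a1 (1.10). The falls were those of Hnrnpdl 96083_s_at (-0.60), U2af1 (-0.49) and Prpf19 97395_at (-0.47). These 9 had limma adjusted p = 0.00569 to 0.0229, and 0.0859 to 0.937 with the set as a term. Hnrnpll was lost without vehicle 0 h replicate 3 (adjusted p = 0.104) and Hnrnpr without vehicle 0 h replicate 1 (adjusted p = 0.0890). Hnrnpdl was lost without vehicle 0 h replicate 2 or vehicle 12 h replicate 1 (adjusted p = 0.0744 and 0.0558). Prpf19 was lost without vehicle 0 h replicate 1 or vehicle 12 h replicates 2 or 3 (adjusted p = 0.0609 to 0.136).

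Between rapamycin and vehicle livers, members passed at 0 h. There 3 members were higher (4.78%) and 0 lower (0.579%), against 5.36% of all probe sets in either direction, namely Srsf3 101003_at, Hnrnpr and Srsf1 104586_at. Srsf3 read 25, 30 and 16 under rapamycin against 0, -6 and 7 under vehicle, Hnrnpr 27, 21 and 29 against 5, 12 and 12, and Srsf1 23, 30 and 30 against 15, 13 and 14. All 3 read at or below 30, the rapamycin arrays are of set 2 and the vehicle arrays of set 1, and their log2 changes of 1.81, 1.39 and 0.97 became 0.27, 0.37 and 0.44 with the set as a term (limma, adjusted p = 0.951, 0.925 and 0.855). Leaving out vehicle 0 h replicate 1 lost all 3 calls (adjusted p = 0.0572, 0.133 and 0.0514). Without rapamycin 0 h replicate 2 the calls of Srsf3 and Srsf1 were lost (adjusted p = 0.0978 and 0.0988), and without vehicle 0 h replicate 2 the same ones (adjusted p = 0.0555 and 0.0758). Quantile normalization gave 0 higher and 1 lower member, and scaling to 1 trimmed mean 3 and 2. Rises were 50.6% and 64.8% of all calls under these scalings, against 89.2% as deposited, where the median log2 change of all probe sets was 0.13. Hnrnpr was lost without rapamycin 0 h replicates 1 (adjusted p = 0.0619) or 3 (adjusted p = 0.0775), the last of which lost Srsf1 too (adjusted p = 0.0723).

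**Figure D5:**
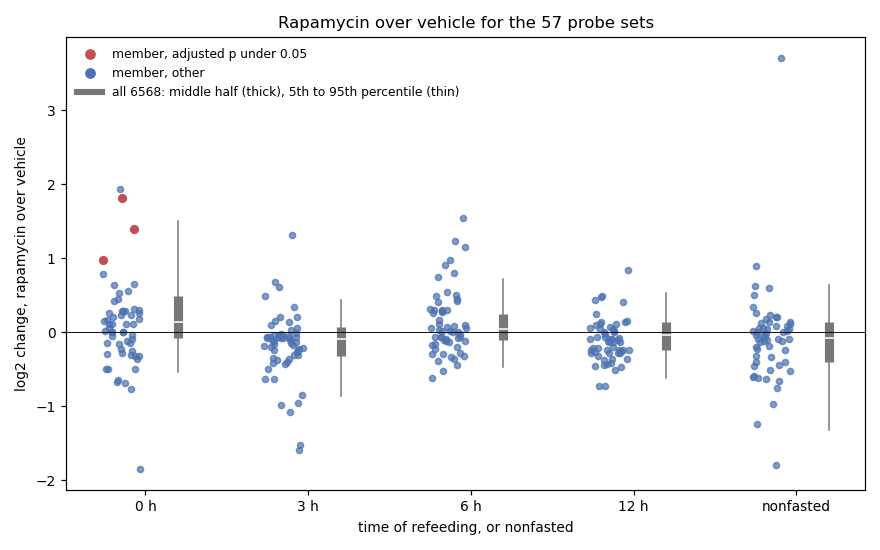
Log2 change of rapamycin over vehicle (y axis) for the 57 probe sets at 0, 3, 6 and 12 h of refeeding and in nonfasted livers (x axis). Red points passed the adjusted test and blue points did not; grey bars show the middle part (thick) and the 5th to 95th percentile (thin) of all 6568 probe sets. Red points occur at 0 h only, and at 12 h the points lie between -0.73 and 0.83.

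During refeeding 0 of the 57 members passed between rapamycin and vehicle with limma, at 3 h (0.305% of all probe sets in either direction), at 6 h (0.0152%) and at 12 h (0.320%), and 0 did so without a fast (1.00%, or 0.0761% higher and 0.929% lower). With a floor of 30, 2 members passed at 3 h (0.685% of all) and 1 without a fast (1.00%). At an unadjusted p under 0.05 stood 7 members at 3 h (12.3%, against 7.66% of all probe sets) and 10 at 6 h (17.5%, against 5.97%). There were 6 at 12 h (10.5%, against 7.98%) and 5 without a fast (8.77%, against 12.7%). For the test whether the drug difference changed with refeeding time, 0 members passed (1.31%) and 5 had an unadjusted p under 0.05 (8.77%, against 13.6% of all). The comparison at 12 h is the one within 1 array set, and there the median SE of a member's log2 difference was 0.28. Hnrnpa2b1 93117_at had the smallest p at 12 h, reading 241, 209 and 187 under rapamycin against 289, 266 and 307 under vehicle, with no overlap, a log2 change of -0.44 (limma, adjusted p = 0.324) and a 95% interval of -0.75 to -0.14. U2af1 read 123, 111 and 108 against 136, 161 and 143, a change of -0.36 (adjusted p = 0.496, interval -0.67 to -0.05).

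For the members that moved with refeeding, the test between drugs did not pass at 12 h. The 95% intervals of the log2 difference of rapamycin over vehicle were -0.62 to 0.18 for Snrpg, -0.13 to 0.35 for Prpf8, -0.31 to 0.18 for Prpf6, -0.73 to -0.01 for Hnrnpdl 96083_s_at and -0.70 to 0.52 for Srsf2 94017_s_at. At 6 h Srsf2 was lower by 0.62 on average under rapamycin, with an interval of -1.22 to -0.01 (limma, adjusted p = 0.830), and the mean rests on the 1 low array of set 2. With the set as a term it was -0.47 (adjusted p = 1.0), and whether the spread of the rapamycin arrays lies in the mice was not tested. Without a fast, Snrpb2 read 85 and 80 under rapamycin against 0 and -73 under vehicle, the largest difference of any member (log2 change 3.71, limma adjusted p = 0.0715). These groups lie in different sets, the adjusted p with the set as a term was 0.424, and Snrpb2 lay below 30 on 26 of 33 arrays.

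Other spliceosome and splicing regulator genes, a list of 114 symbols of which 61 genes with 74 probe sets were tested, had 8 probe sets higher (14.2% of all) and 3 lower (6.90% of all) at 6 h than at 0 h in vehicle livers. Their median log2 change was 0.06, against 0.02 over all probe sets. Among them was Lsm2, an Sm-like protein, at 28, 53 and 44 against 14, 0 and 22 (log2 change 1.69, limma adjusted p = 0.0230). Sfpq, which acts in paraspeckles, read 36, 26 and 48 against 17, -14 and 21 (log2 change 1.44, limma adjusted p = 0.0115). Smn1, needed for loading Sm rings, was lower at 36, 37 and 50 against 70, 77 and 67 (log2 change -0.81, adjusted p = 0.00577). Under rapamycin, 12 h against 0 h gave 9 higher (14.6% of all) and 4 lower (10.4% of all), with Txnl4a, a component of the U5 snRNP, at 116, 145 and 89 against 22, 8 and 69 (log2 change 2.32, limma adjusted p = 0.00403). Fasted against nonfasted vehicle livers, which lie in different sets, gave 5 higher (10.1% of all) and 10 lower (19.1% of all), but 6 higher and 0 lower with the set as a term (7.58% and 8.16% of all). Rapamycin against vehicle gave 0 at 3, 6 and 12 h and without a fast. Other floors and left-out arrays were not examined for this list.

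Markers of other cell types did not shift alike. Of 12 Kupffer cell probe sets (9 of 11 listed genes), 7 were lower in vehicle livers at 0 h than in nonfasted vehicle livers, with summed intensities of 941 to 1021 against 1477 to 2007, beside the rises of Hnrnpd, Hnrnpdl, Prpf19 and U2af1 in that comparison. At 6 h against 0 h in vehicle livers, beside the rise of Srsf2, 2 Kupffer probe sets were higher and 0 lower, with sums of 1111 to 1288 against 941 to 1021. Of the 6 hepatocyte probe sets, 1 was higher and 1 lower at 6 h over 0 h, 1 higher and 3 lower at 6 h over uninjected livers, and 1 higher and 5 lower at 12 h over 0 h, with vehicle and under rapamycin alike. Kupffer markers at 6 h over uninjected livers gave 1 higher and 1 lower, and at 12 h over 0 h under rapamycin 0 higher and 1 lower. The single lymphocyte probe set was lower at 6 h and 12 h over 0 h in vehicle livers, at 6 h over uninjected livers and at 12 h over 0 h under rapamycin. It was higher in fasted than in nonfasted vehicle livers (458 to 504 against 123 to 207) and with rapamycin without a fast. Of 2 neutrophil probe sets, 1 was lower at 6 h over 0 h, at 6 h over uninjected livers and at 12 h under rapamycin, and 1 was higher in fasted than in nonfasted livers. Of 2 stellate cell probe sets, 1 was higher at 3, 6 and 12 h over 0 h in vehicle livers and 1 lower at 6 h and 0 h over uninjected livers, and 1 went each way in fasted over nonfasted livers and at 12 h under rapamycin. Of 4 endothelial probe sets, 1 went each way at 6 h over 0 h and in fasted over nonfasted livers, and 1 was lower at 6 h over uninjected livers and at 12 h under rapamycin. Of 2 red blood cell probe sets, 1 was lower at 3, 6 and 12 h over 0 h in vehicle livers. For rapamycin over vehicle at 0 h, 1 was lower as well, with summed intensities of 818 to 1121 against 1064 to 3000. The part of these shifts in the members' changes was not tested.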

How the data were processed

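Liver RNA of 33 mice was hybridised to Affymetrix MG-U74Av2 arrays. The authors deposited intensity values for 12488 probe sets on a linear scale, with values below 0 kept. Per the file headers all arrays except 1 carry their own scaling factor, and other algorithm settings are not given in the sources used here. The depth of an array has no count, and the number of arrays limits the precision. A second deposited table holds present, marginal and absent calls, which stand under experiment numbers and were only counted over all arrays; 66 further per-array columns were not used.

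Gene symbols came from GEO's annotation of the platform, which is old, and all 57 symbols were found in RefSeq GRCm38.p6. Tests used the 6568 probe sets, controls aside, with a present call on 3 or more of the 33 arrays. Values under 6.31, which is 0.1 of the arrays' average trimmed mean, were set to it before taking log2. One fit of 11 group means in limma 3.58.1 under R 4.3.3 gave each contrast, with 22 residual and 1.89 prior degrees of freedom and Benjamini-Hochberg adjustment over 6568 probe sets. The fit was tested on simulated data. Named members are those that passed (up to 6 rises and 6 falls per comparison) and a fixed list of genes.

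The members, gene lists and tests were chosen with earlier results of these data known. Alternatives were quantile normalization, scaling to 1 trimmed mean, a floor of 30, the array set as a term, no detection filter, trended robust eBayes, only the groups compared, a replicate block, and leaving out each array. Same-numbered arrays correlated between -0.273 and 0.213 in their deviations. The same was not computed for arrays of different numbers, so this check cannot decide whether replicate numbers pair samples. The 3'/5' ratios were 0.844 to 1.07 for Gapdh and 1.15 to 1.65 for Actb (1.20 to 1.65 in set 1 and 1.15 to 1.51 in set 2).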

Additional observations from a re-analysis of the deposited data

Results flagged for a closer look

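Single arrays that stand apart were looked for in the uninjected fasted group alone (n = 5), since groups of 2 or 3 are too small. With the critical value used, chance alone picks out about 1 in 20 groups. In 5 of the 57 members 1 array stood apart from the other 4. Hnrnph3 104231_at read 14.3 on the highest array and -13.0 on the next. Hnrnpul2 104296_at read 8.0 on the lowest array and 31 on the next, Sf3a2 92196_f_at read -35.0 and 182.3, and Sf3b5 95732_at read -2.0 and 45.0. U2af1 97486_at read 120.0 on the lowest array and 148.0 on the next. The low U2af1 array is replicate 2, without which its rise at 0 h over uninjected livers no longer passed.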

How the results depend on the processing

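Of 72 calls, 13 passed in all 9 alternative fits: Srsf2 94017_s_at for 6 h over 0 h and over uninjected livers, Prpf6, Prpf38a, Hnrnpa2b1 93117_at, Snrpg and Prpf8 for 6 h over uninjected livers, Hnrnpd and Prpf19 97395_at for fasted over nonfasted livers, and Prpf38a, Hnrnpdl 96083_s_at, Hnrnpm and Prpf8 for 12 h over 0 h under rapamycin. Leaving out single arrays is counted apart. The causes of the shifts below were not tested, except that fitting only the groups compared leaves fewer arrays. Percentages are shares of all probe sets called under the same setting. Vehicle 3 h over 0 h had 9 members called (22.4%), but 4 with quantile normalization (13.8%), 6 with only the groups compared (8.82%), 0 with a term for the set (2.68%), and 1 with that term and a floor of 30 (2.95%). Vehicle 6 h over 0 h had 8 (21.1%), and 3 with only the groups compared (6.74%). Vehicle 12 h over 0 h had 16 (35.3%), but 2 with the set term (15.6%, or 14.9% with the floor of 30) and 8 with only the groups compared (19.2%). Vehicle 12 h over 3 h had 4 (11%), but 7 with quantile normalization (14%) or a floor of 30 (15.1%), 10 with the set term and that floor (16.1%), and 2 with no detection filter (6.01%) or with trended robust eBayes (11.7%). Vehicle 0 h over uninjected livers had 4 (5.88%), but 1 with no detection filter (2.24%) and 0 with only the groups compared (0.274%). Vehicle 0 h over nonfasted livers had 8 (29.2%), but 13 with scaling to 1 trimmed mean (33%) and 4 with only the groups compared (12.1%). Rapamycin 12 h over 0 h had 7 (25%), and 11 with quantile normalization (28.1%) or with the set term and a floor of 30 (25.4%). Rapamycin over vehicle at 0 h had 3 (5.36%), but 1 with quantile normalization (3.61%), 5 with scaling (5.97%), 0 with the set term (0.0457%), and 0 with a floor of 30 (1.52%), at or below which these 3 members read. The 0 calls of rapamycin over vehicle became 2 at 3 h (0.685%) and 1 without a fast (1.00%) with a floor of 30, and 1 each at 3 h (0.518%) and 12 h (1.17%) with the set term as well.

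Signs turned for 3 dim probe sets. With the set term and a floor of 30, Hnrnpr was -0.0530 for vehicle 3 h over 0 h, -0.0688 for 12 h over 0 h, 0.0688 for fasted over nonfasted and -0.0688 for rapamycin over vehicle at 0 h, and Srsf1 104586_at was 0.0118 and -0.0118 in the last pair. With quantile normalization Srsf1 160141_r_at was -0.22 for vehicle 12 h over 0 h.

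With replicate number as a block the counts were 5 for vehicle 6 h over 0 h (19.7%), 2 for 12 h over 3 h (10.0%) and 0 for 0 h over uninjected livers (1.96%), and 13 of 72 calls were lost. The replicate numbers share no animal or batch in the labels.

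Leaving out 1 array at a time gave 7 to 14 calls for vehicle 3 h over 0 h, 5 to 10 for 6 h over 0 h, 11 to 14 for 12 h over 0 h and 0 to 2 for 12 h over 3 h. It gave 8 to 16 for 6 h and 0 to 8 for 0 h over uninjected livers, 4 to 11 for fasted over nonfasted, and 5 to 6 for rapamycin 12 h over 0 h. Rapamycin over vehicle gave 0 to 5 at 0 h, 0 to 1 at 3 h and without a fast, and 0 at 6 and 12 h, and the test of drug by time 0 to 1. Vehicle 0 h replicate 3 gave the highest counts for 3 h (14) and for 0 h over uninjected livers (8), and vehicle 0 h replicate 1 gave 0 for 0 h over uninjected livers and for rapamycin at 0 h. Arrays carry no count of reads, and dim members near the floor limit what the tests can show.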
